A study of Mus musculus with 18 samples.

Results

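The livers of mice given AC261066 on a high-fat diet were compared with the livers of chow-fed mice, to describe what still differed from chow after treatment and what was present in treated livers but absent from untreated HFD livers. Of the 18 livers sequenced, 12 belong to this comparison, and each library is 1 male C57BL/6 mouse that was 6 to 7 weeks old when the diets began. The chow group (n = 6) ate a diet with 13% of kcal from fat for 4 months and drank water with 0.2% DMSO. The HFD+AC261066 group (n = 6) ate a diet with 60% of kcal from fat for 4 months and drank AC261066 at 3 mg per 100 ml, in the same 0.2% DMSO, during the last 2 months. The HFD group (n = 6), which had the same diet and DMSO without AC261066, entered as the reference that tells what the diet alone had changed. All mice were fasted overnight before the livers were taken. No group received AC261066 on chow, so a difference between treated and chow livers carries the diet and the compound together and they cannot be told apart within it.

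AC261066 is a synthetic agonist of RARβ2, an isoform of retinoic acid receptor β. Retinoic acid receptors bind DNA as partners of the retinoid X receptors at paired copies of a short hexamer, and ligand binding turns on transcription of genes such as *Cyp26a1*, whose enzyme degrades retinoic acid. A high-fat diet loads mouse hepatocytes with triglyceride, raises genes of lipid storage and shifts the drug-metabolising enzymes, and these changes form the background against which the treated livers are described.

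The values are log2 values per gene that the authors had already corrected for batch. Of 20512 genes listed, 13268 averaged 2 or more on the log2 scale across the 18 livers and were tested. Within every gene the mean of the libraries numbered 1 to 3 equalled the mean of those numbered 4 to 6 to within 4.6e-14, while for any other division of the 6 numbers into sets of 3 the largest difference was at least 0.841. Libraries 1 to 3 and 4 to 6 are therefore treated as the 2 levelled batches, and the study states that the experiment was run in 2 rounds. Library medians lay between 8.348 and 8.385. Sequencing depth per library is unknown from log2 values. Errors here come from the variation among libraries, each from 1 mouse, which does not separate differences among mice from those of measurement. Of the 18 hepatocyte identity genes tested, 16 were not called between treated and chow livers, their summed level (2 raised to the log2 value) was 3312497 to 4198675 in chow and 2992335 to 4200339 in treated livers, and of 16 pancreatic exocrine markers listed 2 reached the minimum for testing. Exact zeros cannot be read as lack of expression in this table, since *Rpl26*, a ribosomal gene that every cell uses, was listed at 0 in every liver. In these bulk samples, fewer cells of a type and less RNA per cell cannot be told apart. HFD+AC261066 liver 3 lay nearer to chow than the other treated livers in several of the genes below, and results that rest on it are given without it.

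Treated livers differed from chow livers in 2611 of 13268 genes (19.7%, limma, Benjamini-Hochberg adjusted p under 0.1), of which 1299 were higher (9.79%) and 1312 were lower (9.89%). Most differences were small. The median size of a called difference was 0.28 on the log2 scale, 318 called genes differed by at least 0.5, and 50 by at least 1, 24 of them higher and 26 lower. The same fit called 4257 genes in HFD livers against chow (32.1%), 2091 higher (15.8%) and 2166 lower (16.3%), with 133 at or above 1 in size. Between treated and HFD livers 581 genes were called (4.38%), 283 higher (2.13%) and 298 lower (2.25%).

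These calls divided the genes. A gene stayed changed if it was called in the same direction against chow in both HFD and HFD+AC261066 livers, and 1819 genes did so, which is 69.7% of those called in treated livers and 42.7% of those called in HFD livers. Both comparisons use the same 6 chow livers, so this count is a description. The 892 that stayed higher had a median difference from chow of 0.33 in treated and 0.35 in HFD livers, and the 927 that stayed lower had medians of -0.26 and -0.29. Of the 1819, 78 were also called between treated and HFD livers, 41 of the higher and 27 of the lower ones toward chow and 10 away from it, and 1741 were not called there. A gene was new in treated livers if it was called against chow and against HFD in the same direction and was not called in HFD livers against chow, and 76 genes met this, 39 higher and 37 lower. A further 2 genes were called on opposite sides of chow in the HFD and the treated livers. For comparison, 2436 genes called in HFD livers were not called in treated livers, and 354 of these were also called between treated and HFD livers, in the direction of chow.

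**Figure D1:**
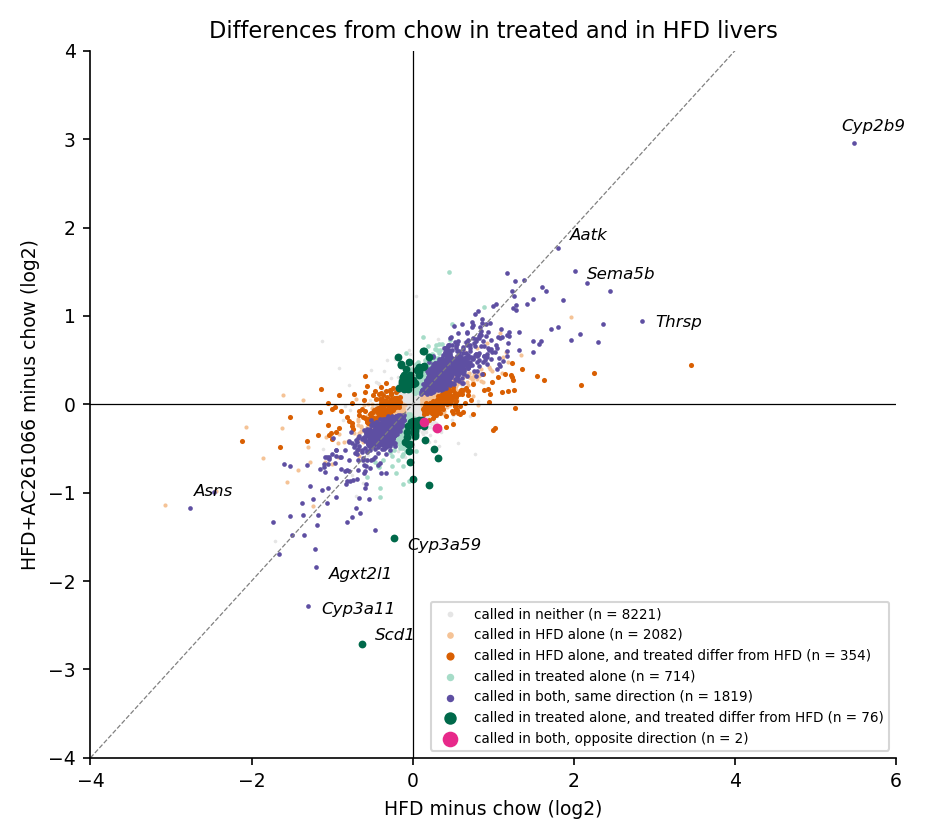
Difference from chow of each tested gene (log2) in HFD livers on the horizontal axis and in HFD+AC261066 livers on the vertical axis, each point 1 gene and each colour 1 class. The 1819 genes that stayed changed lie in the lower left and upper right, and the 76 new genes lie mostly near 0 on the horizontal axis and away from 0 on the vertical axis.

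The gene with the smallest p among those higher in treated livers was *Aatk* (chr11:119868627-119908481, minus strand, mm9), which encodes the apoptosis-associated tyrosine kinase. Its log2 value ran from 6.72 (median 7.41) to 8.1 in chow livers and from 8.54 (median 9.25) to 9.58 in treated livers. The groups did not overlap, and the difference of 1.77 ± 0.18 (SE) is 3.41-fold (limma, adjusted p = 2.22e-05). HFD livers stood 1.8 above chow, and between treated and HFD livers *Aatk* differed by -0.03 (adjusted p = 0.949). *Nrp2*, a co-receptor for semaphorins and vascular growth factors, lay between 8.87 (median 9.15) and 9.26 in chow and between 9.64 (median 9.82) and 9.98 in treated livers, again without overlap, a 1.64-fold difference (0.71 ± 0.082 on the log2 scale, limma adjusted p = 7.07e-05). *Extl1*, a glycosyltransferase of heparan sulfate synthesis, was 2.66-fold higher, with chow livers between 6.35 and 7.19 and treated livers between 7.67 and 8.63 (limma adjusted p = 0.000102). *Sema5b*, a transmembrane semaphorin, was 2.85-fold higher, from a chow median of 6.03 to a treated median of 7.68, and here the lowest treated liver (6.63) lay below the highest chow liver (6.73).

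The other genes among the 10 with the smallest p were 1.43-fold to 1.66-fold higher, and in none of them did the treated and chow livers overlap. All 10 were chosen for the smallest p in this same comparison, which favours separate groups, so the lack of overlap is a description. They were *Lect2*, a protein that hepatocytes secrete (1.66-fold), *Dhx58*, the RIG-I-like receptor LGP2 that senses viral RNA (1.63-fold, chr11:100556018-100565585, minus strand, mm9), *Igf2bp2*, an mRNA-binding protein (1.62-fold), *Slc17a3*, an organic anion transporter known for urate in human kidney (1.61-fold), *Chd3*, a chromatin remodeller of the NuRD complex (1.55-fold), and *Cpox*, coproporphyrinogen oxidase of heme synthesis (1.43-fold). *Dhx58* lay between 7.31 (median 7.71) and 7.95 in chow, between 8.22 (median 8.37) and 8.53 in HFD, and between 8.21 (median 8.42) and 8.56 in treated livers. The HFD and treated ranges of *Dhx58* nearly coincided and both lay above chow. All 10 genes were called higher in HFD livers too, and none of the 10 was called between treated and HFD livers.

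Drug-metabolising enzymes led the lower side. *Cyp3a11* (chr5:146666002-146691540, minus strand, mm9), a major P450 of xenobiotic and steroid hydroxylation in mouse liver, had log2 values of 16.4 (median 16.76) to 17.23 in chow, 15.06 (median 15.51) to 15.85 in HFD, and 13.73 (median 14.55) to 15.01 in treated livers. The 3 groups did not overlap, with chow highest and treated livers lowest. Treated livers were 4.87-fold below chow (-2.28 ± 0.2 on the log2 scale, limma adjusted p = 4.97e-06), HFD livers stood at -1.29 from chow, and treated livers lay a further -0.99 from HFD (limma adjusted p = 0.0149). *Cyp3a16* differed from chow by -0.95 ± 0.1 and *Ces2a*, a carboxylesterase that hydrolyses drugs and acylglycerols, by -1.06 ± 0.12 (limma adjusted p = 2.22e-05 and 4.48e-05). Both were also called lower in treated than in HFD livers, by -0.36 and -0.4 on the log2 scale. *Ugt1a9*, a glucuronosyltransferase, was 3.1-fold lower than in chow, with chow livers between 9.27 (median 9.8) and 10.0 and treated livers between 7.58 (median 7.98) and 8.58. Members of the Cyp3a family are close in sequence and the Ugt1a transcripts share their last exons, so reads may have been divided among them and the value of each member is uncertain to that extent.

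*Slc39a4* (chr15:76442815-76447322, minus strand, mm9), which encodes the zinc importer ZIP4, was also lower. It lay between 9.52 (median 10.06) and 10.2 in chow, 8.73 (median 9.21) and 9.55 in HFD, and 8.36 (median 8.72) and 8.98 in treated livers. Treated and chow livers were separate, 2.52-fold apart (limma adjusted p = 2.22e-05), and treated livers were below HFD livers by -0.52 on the log2 scale (limma adjusted p = 0.0546). *Agxt2l1*, the phospho-lyase that breaks down phosphoethanolamine, was 3.57-fold lower than in chow, with chow livers between 12.24 and 13.71 and treated livers between 10.24 and 11.36. The last 4 of the 10 lower genes were *Gpr110*, an adhesion G protein-coupled receptor (2.51-fold lower), *Jph1*, a junctophilin that ties the endoplasmic reticulum to the plasma membrane (1.67-fold lower), *Fbxo34*, an F-box protein (1.37-fold lower), and *Gsto1*, glutathione transferase omega (1.35-fold lower). Treated and chow livers did not overlap in any of these 4. The 10 lower genes were also chosen for the smallest p, so separate groups among them are a description.

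**Figure D2:**
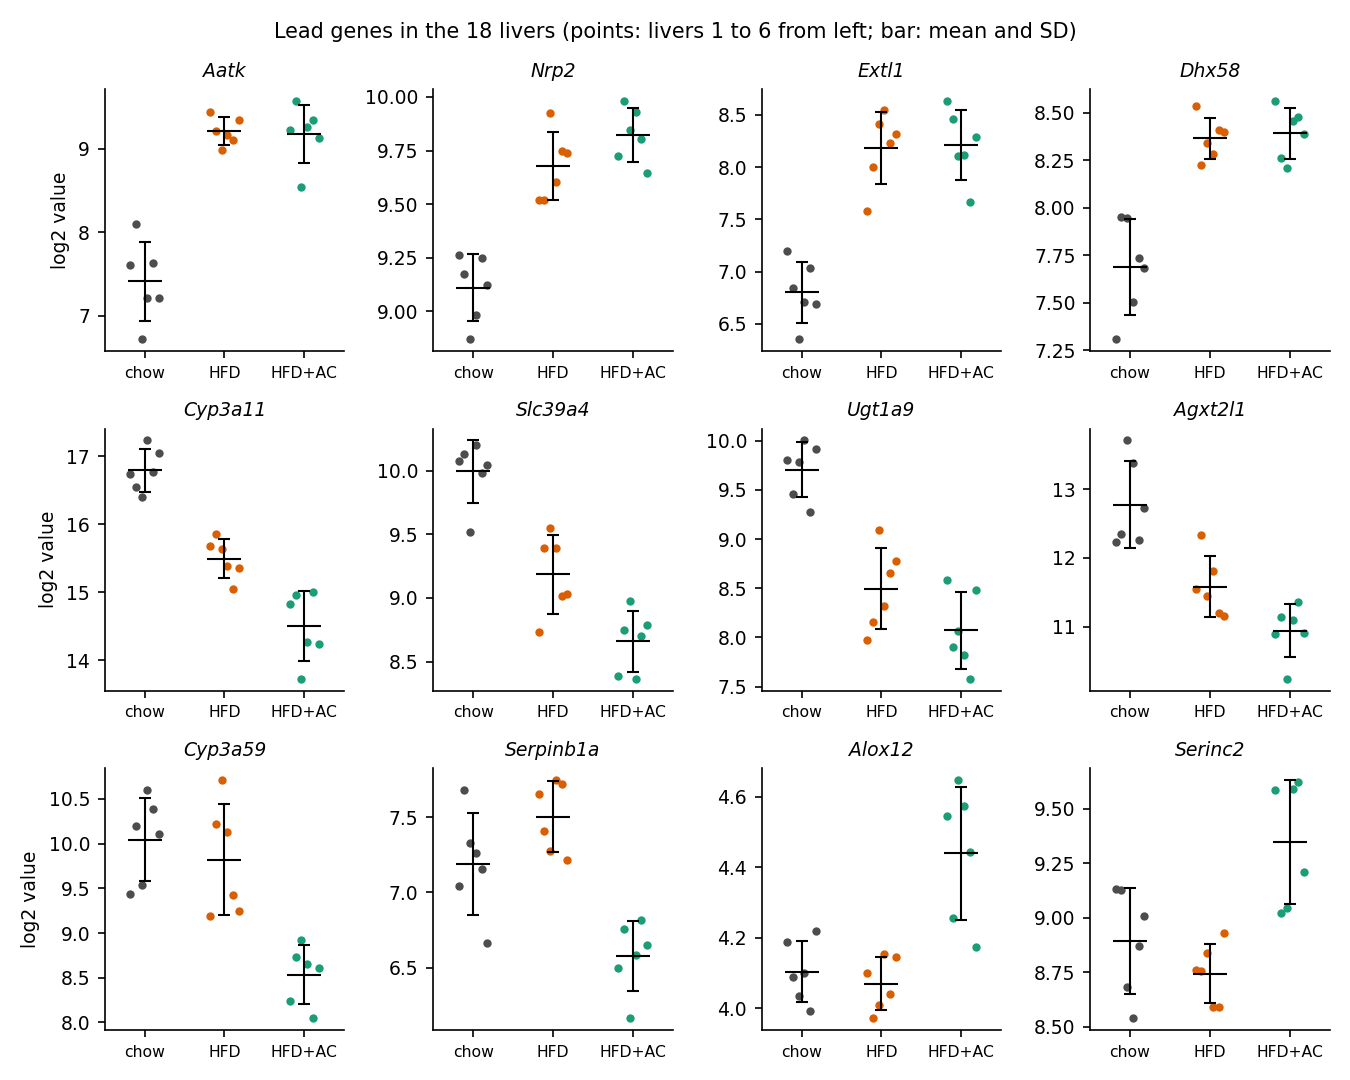
Log2 value of 12 genes in each liver (vertical axis), with chow, HFD and HFD+AC261066 livers 1 to 6 from left to right within each group and bars for the mean and SD of 6 livers. *Aatk*, *Nrp2*, *Extl1* and *Dhx58* are higher, and *Cyp3a11*, *Slc39a4*, *Ugt1a9* and *Agxt2l1* lower, than in chow in both HFD groups, while *Cyp3a59* and *Serpinb1a* have lower and *Alox12* and *Serinc2* higher means in the treated livers than in either other group, with overlap between treated and chow livers in all but *Cyp3a59*.

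Among the genes that stayed changed, 20 were at least 1 higher and 15 at least 1 lower on the log2 scale in both HFD groups. Those named here were chosen for the smallest difference between treated and HFD livers, so their near-equal values in both are a description. *Dio1*, the deiodinase that activates thyroxine, lay between 10.43 (median 11.41) and 11.89 in chow, 12.15 (median 12.54) and 12.83 in HFD, and 12.14 (median 12.62) and 12.76 in treated livers. Neither HFD group overlapped chow for *Dio1*, and its difference of 1.29 from chow in treated livers (limma adjusted p = 0.000799) stood beside 1.23 in HFD livers. *Gna14*, a G protein alpha subunit, was 1.22 above chow in treated and 1.26 in HFD livers, and *Cml5*, of the camello-like acetyltransferases, was 1.14 and 1.03 above. The 95% interval of the difference between treated and HFD livers ran from -0.45 to 0.38 for *Gna14* and from -0.35 to 0.46 for *Dio1*.

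The lower genes chosen in the same way varied more from liver to liver. *Cux2*, a homeobox repressor that is female-biased in mouse liver, lay between 5.1 (median 6.62) and 7.74 in chow and 4.24 (median 4.64) and 5.72 in treated livers, 3.23-fold lower (limma adjusted p = 0.0111), with a difference of -0.34 in libraries 1 to 3 and -3.04 in libraries 4 to 6 (limma adjusted p for the difference of sets = 0.0122). *Acmsd*, which turns tryptophan breakdown away from NAD synthesis, was 2.38-fold lower, with treated liver 3 at 8.99 and the other 5 between 6.92 and 7.36. *Mt2*, metallothionein 2, had chow values from 10.12 to 13.64 and treated values from 9.35 to 12.94, a difference of -1.48 ± 0.58 (limma adjusted p = 0.0974) that lost its call in 14 of 18 fits that left out 1 library. *Nipal1*, of a magnesium transporter family, and *Scara5*, a receptor for ferritin, differed by -1.11 and -1.25 and lost their calls in 4 and 3 of those 18 fits.

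Another set stayed above or below chow but much less so than in HFD livers. *Thrsp*, a lipogenic protein of the hepatocyte nucleus, had log2 values of 8.89 (median 9.56) to 10.11 in chow, 11.77 (median 12.45) to 12.85 in HFD, and 9.69 (median 10.69) to 11 in treated livers. The treated livers overlapped chow and lay wholly below the HFD livers. *Thrsp* remained 0.94 above chow (limma adjusted p = 0.0165), against 2.85 in HFD livers, and was 1.91 lower than in HFD (treated minus HFD -1.91, limma adjusted p = 0.000599). *Cyp2b9*, a female-biased P450 that fat feeding raises in male mice, was 2.96 above chow in treated and 5.48 in HFD livers, and its treated livers spread from 7.94 to 11.75. *Lgals1*, the lectin galectin-1, was 0.8 above chow against 2.08 in HFD livers, *Mogat1*, a monoacylglycerol acyltransferase of triglyceride synthesis, 0.86 against 1.71, and *Chchd6*, a subunit of the mitochondrial cristae organising complex, 0.53 against 0.93. Each of these 4 genes was also called lower in treated than in HFD livers (limma adjusted p between 0.00913 and 0.0375).

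*Asns*, asparagine synthetase, and *Cyp4a12b*, a male-biased fatty acid hydroxylase, moved the other way. *Asns* lay between 7.87 (median 8.24) and 8.8 in chow, 4.68 (median 5.73) and 6.08 in HFD, and 6.23 (median 6.7) and 8.98 in treated livers. Its difference from chow was -1.18 in treated livers (limma adjusted p = 0.0386) and -2.77 in HFD livers, and the highest treated liver stood above every chow liver. *Cyp4a12b* was 0.99 lower than chow in treated livers (-0.99, limma adjusted p = 0.0606) against -2.47 in HFD livers, a call lost in 5 of the 18 fits without 1 library, and it is nearly identical to *Cyp4a12a*, so reads may have been divided between them.

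The 76 genes new in treated livers had a median difference from chow of 0.29 for the 39 that were higher and -0.29 for the 37 that were lower, against medians of -0.05 and 0.02 in HFD livers. The calls that chose them fix this contrast, and the values are a description. *Cyp3a59*, a further member of the Cyp3a family, stood apart in size among the 16 named here. Its log2 value was 9.44 (median 10.15) to 10.6 in chow, 9.2 (median 9.77) to 10.71 in HFD and 8.05 (median 8.63) to 8.92 in treated livers, so that chow and HFD livers overlapped and the treated livers lay below both. It was 2.85-fold below chow (limma adjusted p = 0.00159) and -1.28 from HFD on the log2 scale (limma adjusted p = 0.0112).

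The lower side of these new genes included conjugating and metabolic enzymes. *Gsta4*, the glutathione transferase that clears lipid peroxidation aldehydes, was 1.58-fold below chow, with treated livers between 8.68 (median 9.41) and 9.61 and chow livers between 9.68 (median 9.93) and 10.17. *Gstm6*, a class mu transferase, was 1.26-fold lower with treated livers between 9.52 and 9.63 and chow livers between 9.74 and 10.24. *Ugp2*, which makes the UDP-glucose used for glycogen and glucuronides, was 1.36-fold lower. *Serpinb1a*, an inhibitor of neutrophil proteases, was 0.31 above chow in HFD livers without being called (adjusted p = 0.12) and 1.53-fold below chow in treated livers (6.16 to 6.81 against 6.66 to 7.68 in chow, limma adjusted p = 0.0122). *Prosc*, a pyridoxal phosphate-binding protein (1.15-fold lower), *Ivns1abp*, a kelch protein (1.26-fold lower), and *Cenpw*, a centromere protein (1.23-fold lower), completed the 8.

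On the higher side, *Alox12*, arachidonate 12-lipoxygenase, lay between 3.99 (median 4.09) and 4.22 in chow, 3.97 (median 4.07) and 4.15 in HFD, and 4.17 (median 4.49) and 4.65 in treated livers. The 5 highest treated livers stood above every chow liver, and the difference was 1.26-fold (limma adjusted p = 0.00926 against chow and 0.015 against HFD). *Serinc2*, of the serine incorporator family, was 1.37-fold higher than chow and 0.6 higher than HFD on the log2 scale, and *Cpne2*, a calcium-dependent phospholipid-binding copine, 1.32-fold and 0.48 higher. *Fut1*, a fucosyltransferase (1.45-fold), *Tmem86a*, a lysoplasmalogenase (1.34-fold), and *Ifngr2*, a chain of the interferon gamma receptor (1.18-fold), had treated livers wholly above chow. *D630045J12Rik* was 1.39-fold higher and *Fcgr2b*, the inhibitory Fc receptor of sinusoidal endothelium and macrophages, 1.21-fold higher.

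Of these 16 genes, 11 met the definition of new in each of the 18 fits that left out 1 library, and the exceptions were *Fcgr2b* (16 of 18), *Serpinb1a* (15), *Tmem86a* and *Ifngr2* (13 each) and *Fut1* (11). With a batch term 45 genes were new, 43 of the 76 among them, including all 16 named. With libraries 4 to 6 alone 183 genes were new, but only 22 of the 76 were among them, with 4 of the 16 named. Libraries 1 to 3 alone kept 0 of the 76. With the library number as a replicate block 26 of the 76 were kept, with 12 of the 16 named. The count of new genes depended on single libraries: it was 30 without HFD+AC261066 liver 4, 34 without HFD+AC261066 liver 5, 43 without HFD+AC261066 liver 1, 177 without HFD+AC261066 liver 6, and 46, 42 and 49 without HFD livers 2, 3 and 6.

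**Figure D3:**
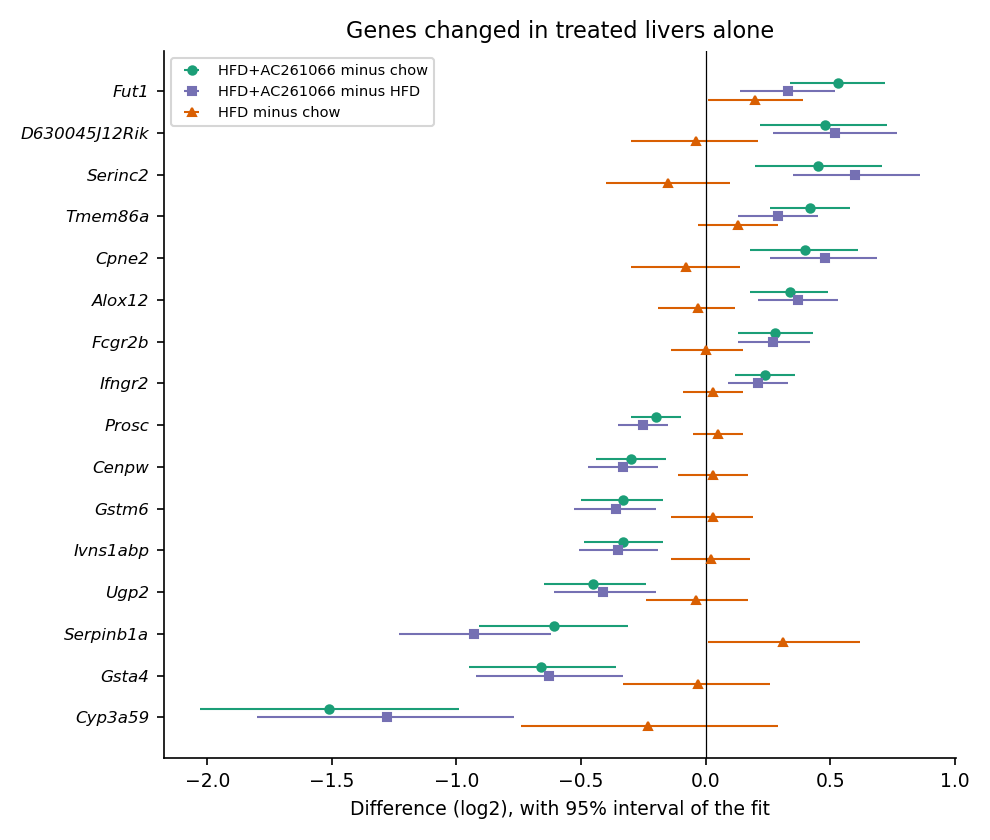
Difference (log2, horizontal axis) of 16 genes new in treated livers, with points for HFD+AC261066 minus chow, HFD+AC261066 minus HFD and HFD minus chow and bars for the 95% intervals. The first 2 differences lie on the same side of 0 for every gene, and the interval of HFD minus chow includes 0 except for *Fut1* and *Serpinb1a*, whose lower bounds are 0.01.

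*Scd1* (chr19:44468941-44482199, minus strand, mm9), the stearoyl-CoA desaturase that makes monounsaturated fatty acids, was also new by this definition and had the largest difference among the named genes that were lower. Its log2 value ran from 13.99 (median 15.15) to 16.82 in chow, 12.99 (median 14.45) to 16.06 in HFD and 11.9 (median 12.57) to 12.82 in treated livers. All 6 treated livers lay below every chow and every HFD liver, 6.55-fold below chow (-2.71 ± 0.54 on the log2 scale, limma adjusted p = 0.00472) and -2.08 from HFD (limma adjusted p = 0.0479). The study, in contrast, reported from its RNA-seq data no difference in *Scd1* transcript between its groups. Within libraries 1 to 3 the difference from chow was -1.42 and within libraries 4 to 6 it was -4.0, and the difference between the sets passed the test (limma adjusted p = 0.0205). *Scd1* was new in 15 of the 18 fits without 1 library, the exceptions being those without HFD livers 2 and 3 and HFD+AC261066 liver 4. *Fads2*, the desaturase that starts the synthesis of long polyunsaturated fatty acids, was 1.52-fold higher than in chow (limma adjusted p = 0.0136), but its difference was 0.14 in libraries 1 to 3 and 1.08 in libraries 4 to 6, and it was new in 8 of 18 fits and not with a batch term. On the other side of chow stood *Edem1*, which sends misfolded glycoproteins to degradation (-0.2 in treated and 0.14 in HFD livers), and *Acat3*, a cytosolic thiolase (-0.27 and 0.3). *Edem1* met this in 9 of 18 fits without 1 library and not with a batch term, and *Acat3* in 16 of 18, the exceptions being those without HFD+AC261066 liver 4 and chow liver 4.

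The enzymes of drug metabolism were described further by lists of genes. Of 44 P450 genes of families 2 and 3 tested, 14 were lower and 3 higher than chow in treated livers (31.8% and 6.82%, against 9.89% and 9.79% of all genes), with a median difference of -0.12 beside 0.004 over all genes. In HFD livers the same list had 8 lower and 10 higher with a median of -0.03, and between treated and HFD livers 13 were lower and none higher (17 and 1 at an unadjusted p under 0.05, limma). *Cyp3a25* was 1.71-fold lower than chow and *Cyp3a44* 1.48-fold lower, and treated and chow livers did not overlap in either. *Cyp2c70*, which makes muricholic acids in mice, was among the new genes, with treated livers between 9.87 (median 10.68) and 11.76 and chow livers between 10.94 (median 11.55) and 12.24 (-0.91 ± 0.25, limma adjusted p = 0.0235, chosen after its values were seen). *Cyp2j6* and *Cyp2d22*, chosen likewise, differed by -0.25 each, and their calls were lost in 7 and 3 of the 18 fits without 1 library.

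Of 47 glucuronosyltransferases, sulfotransferases and glutathione transferases, 15 were lower and 5 higher than chow, with a median of -0.11, against 12 lower and 12 higher and a median of 0.03 in HFD livers. The treated counts are 31.9% and 10.6%, against 9.89% and 9.79% of all genes. The 5 higher calls were 2 or 3 in most fits without 1 library. *Gsta2* was 2.1-fold lower, with treated livers between 6.63 (median 6.84) and 7.02 and chow livers between 7.5 (median 7.91) and 8.42, and *Ugt1a10* was 1.51-fold lower. Among 32 genes of bile acid synthesis and transport, 7 were lower and 2 higher (21.9% and 6.25%, against 9.89% and 9.79% of all genes). In HFD livers 8 of them were lower and 5 higher. *Slco1a4*, a sinusoidal transporter of bile acids and organic anions, was 2.67-fold lower than chow and -0.94 from HFD on the log2 scale (limma adjusted p = 0.0176), with treated liver 3 at 11.07 and the other 5 treated livers between 10.02 and 10.38. *Klb*, the co-receptor for FGF21 and FGF15, and *Cyp27a1*, which starts the acidic pathway of bile acid synthesis, were 1.35-fold and 1.37-fold lower than chow, with HFD livers at -0.48 and -0.43 on the log2 scale.

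*Cyp26a1*, the retinoic acid-degrading enzyme that ligand-bound retinoic acid receptors are known to induce, was lower in treated livers than in chow. It lay between 5.76 (median 6.43) and 6.96 in chow, 5.26 (median 5.81) and 6.23 in HFD, and 4.88 (median 5.18) and 5.65 in treated livers, and treated and chow livers did not overlap. The difference from chow was -1.22 ± 0.19 (2.34-fold lower, limma adjusted p = 0.000835), beside -0.65 in HFD livers, and between treated and HFD livers it was -0.58 without passing the test (adjusted p = 0.111). The promoter of *Cyp26a1* is shown because it holds a direct repeat of the hexamer that these receptors bind. These are the 250 bases before its start in RefSeq (chr19:37697558-37697807, plus strand, GRCm38.p6), with the repeated hexamers in capitals. They match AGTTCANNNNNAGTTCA on the opposite strand, 32 to 16 bases before the start, a pattern searched on both strands and found in 7 of 32851 RefSeq promoters of this length (0.0213%). Only these exact letters at this spacing were searched. The share therefore leaves out other forms of the hexamer and other spacings, and does not tell how common such repeats are.
*Cyp26a1*: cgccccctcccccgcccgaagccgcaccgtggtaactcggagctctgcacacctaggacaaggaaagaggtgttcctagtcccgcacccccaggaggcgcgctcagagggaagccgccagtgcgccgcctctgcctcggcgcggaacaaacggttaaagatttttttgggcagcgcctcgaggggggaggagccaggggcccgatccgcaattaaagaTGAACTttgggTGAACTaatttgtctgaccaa
A match is a description of letters and not evidence of binding in these livers.

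The receptors themselves did not pass the test. *Rarb* differed from chow by 0.01 (95% interval -0.31 to 0.33), *Rara* by 0.09 (-0.11 to 0.29) and *Rarg* by 0.1 (-0.1 to 0.3), 3 genes chosen after their values were seen. Of 40 genes of retinoid receptors and handling, 6 were higher and 3 lower in treated livers, with a median of 0.06, against 9 higher and 3 lower in HFD livers. The treated counts are 15.0% and 7.5%, against 9.79% and 9.89% of all genes. In HFD livers 30.0% of the list was called, beside 32.1% of all genes. *Aldh1a1*, which makes retinoic acid from retinal, was 1.46-fold higher than chow and *Rdh9*, a retinol dehydrogenase, 1.41-fold higher. *Tgm2*, transglutaminase 2, which retinoic acid induces in several cell types, was 1.3-fold higher, and its value in HFD livers was 0.45 above chow. None of these 3 was called between treated and HFD livers.

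Genes of the type I interferon response remained raised. Interferon signals through STAT and IRF transcription factors to induce antiviral genes that carry paired GAAA motifs. Of 34 genes tested, 22 were higher and none lower in treated livers (64.7%, against 9.79% of all genes), with a median of 0.35, beside 28 higher and a median of 0.49 in HFD livers, and none was called by limma between treated and HFD livers, where 2 were lower at an unadjusted p under 0.05. Treated livers had list medians of 0.27 to 0.46 above the chow mean and chow livers of -0.17 to 0.14, so each treated liver lay above each chow liver. The number called higher was 18 to 23 when 1 of the 12 libraries was left out. *Herc6*, a ligase of ISG15, was 1.46-fold higher than chow, *Xaf1* and *Parp14*, both induced by interferon, 1.45-fold and 1.34-fold higher.

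Promoters of 3 of the called genes are shown because they hold the paired motif GAAANNGAAA, read on the opposite strand and capitalised here. *Trim30a* lay between 6.87 (median 7.02) and 7.22 in chow and 7.31 (median 7.43) and 7.56 in treated livers, without overlap (0.41 ± 0.082, limma adjusted p = 0.0056). *Stat2* differed by 0.34 (chow 9.9 to 10.15, treated 9.9 to 10.55, limma adjusted p = 0.0174) and *Ifit1* by 0.53 (chow 7.0 to 7.94, treated 7.63 to 8.13, limma adjusted p = 0.043), and in both the groups overlapped. These 3 were chosen after their values were seen, and *Ifit1* has close paralogs among which reads may have been divided. The sequences are the 250 bases before each start in RefSeq, GRCm38.p6, at chr7:104465194-104465443 (minus strand) for *Trim30a*, chr10:128270248-128270497 (plus strand) for *Stat2* and chr19:34640639-34640888 (plus strand) for *Ifit1*.
*Trim30a*: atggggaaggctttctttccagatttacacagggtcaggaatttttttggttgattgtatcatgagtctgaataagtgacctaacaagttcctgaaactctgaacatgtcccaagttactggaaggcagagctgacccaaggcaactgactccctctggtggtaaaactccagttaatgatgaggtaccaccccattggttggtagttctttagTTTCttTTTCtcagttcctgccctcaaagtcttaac
*Stat2*: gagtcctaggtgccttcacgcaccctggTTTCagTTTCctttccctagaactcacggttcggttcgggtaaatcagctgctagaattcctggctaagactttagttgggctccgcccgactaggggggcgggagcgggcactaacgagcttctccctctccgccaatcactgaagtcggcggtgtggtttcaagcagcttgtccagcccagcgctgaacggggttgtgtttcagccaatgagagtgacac
*Ifit1*: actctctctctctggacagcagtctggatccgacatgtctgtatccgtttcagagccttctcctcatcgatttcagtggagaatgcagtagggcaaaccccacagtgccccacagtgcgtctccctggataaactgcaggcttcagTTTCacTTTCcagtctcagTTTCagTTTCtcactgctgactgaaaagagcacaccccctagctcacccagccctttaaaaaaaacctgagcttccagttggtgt
The motif lies 36 to 27 bases before the start in *Trim30a* and 222 to 213 bases before it in *Stat2*, and *Ifit1* holds 2 copies within 104 to 76 bases. On either strand it was found in 2.98% of 32851 promoters. Counted by gene, with any promoter of the gene, it was found in 3.46% of 27025 genes. It was found in 11 of the 24 genes of the list with a promoter sequence, and in 6 of the 17 called genes with one. *Irf7*, a transcription factor of this pathway chosen after its values were seen, was 1.31-fold higher (limma adjusted p = 0.0503, not called without HFD+AC261066 liver 4, adjusted p = 0.102).

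Markers of immune and other nonparenchymal cells are given beside the interferon genes, since several immune markers were also higher in treated livers. Of 23 markers of Kupffer cells and macrophages, 13 were higher and none lower in treated livers (56.5%, against 9.79% of all genes), with a median of 0.29, beside 8 higher in HFD livers (where 15.8% of all genes were) and a median of 0.24. Between treated and HFD livers limma called 0 of the 23, with 1 higher and 0 lower at an unadjusted p under 0.05. Their summed level was 25892 to 30353 in chow, 29638 to 35653 in HFD and 28496 to 41671 in treated livers, and treated liver 3 had the highest Kupffer cell median (0.62) and the lowest interferon median (0.27) of the treated livers. *C1qa*, a complement component made by Kupffer cells, lay between 10.29 (median 10.33) and 10.4 in chow and 10.41 (median 10.82) and 10.93 in treated livers (1.32-fold, limma adjusted p = 0.00703). *Clec4f*, a lectin of Kupffer cells, was 1.32-fold higher, *Cd300ld* 1.43-fold higher and *Nr1h3*, the liver X receptor α that hepatocytes also express, 1.21-fold higher. The number of Kupffer cell markers called higher was 9 to 15 when 1 of the 12 libraries was left out, and 9 without treated liver 3.

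Of 21 markers of T, NK and B cells tested, 6 were higher and none lower in treated livers (28.6% higher, against 9.79% of all genes). Without HFD+AC261066 liver 5, 3 were higher. Summed levels were 328 to 376 in chow and 356 to 457 in treated livers. *Cd4* was 1.49-fold and *Cd22* 1.21-fold higher, both without overlap between treated and chow livers. Of 29 sinusoidal endothelial markers, 5 were higher and 1 lower (17.2% and 3.45%, against 9.79% and 9.89% of all genes). Summed levels were 23783 to 25996 in chow and 23767 to 28049 in treated livers, and *Clec4g*, a lectin of these cells, was 1.25-fold higher. The 5 sinusoidal calls were 2 without each of HFD+AC261066 liver 4 and chow liver 4 and 3 without each of HFD+AC261066 liver 5 and chow liver 6. *Dnase1l3*, a deoxyribonuclease of the same cells, met the definition of a new gene at 1.16-fold higher but did so in 8 of 18 fits without 1 library. Of 6 blood markers tested, 2 were higher, among them *Slc4a1*, an anion exchanger of red cells (1.47-fold, a call lost in 15 of 18 fits), while the hemoglobin genes *Hba-a1*, *Hba-a2* and *Hbb-b2* were listed at 0 in every liver, and the summed level was 2206 to 2767 in chow and 2710 to 3335 in treated livers. Of 14 markers of monocytes and neutrophils 2 were higher and none lower (14.3% higher, against 9.79% of all genes). Their summed levels were 465 to 618 in chow and 500 to 816 in treated livers. The part of these cell types in the interferon result was not tested.

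Other immune lists were described likewise. Of 27 genes of MHC presentation, 6 were higher and none lower, and of 37 chemokines and inflammatory genes 5 were higher and none lower (22.2% and 13.5%, against 9.79% of all genes), beside 12 and 16 higher in HFD livers, where the share of all genes was 15.8%. The 6 MHC calls were 3 without each of HFD+AC261066 livers 2, 4 and 6 and chow liver 3, 2 without each of HFD+AC261066 liver 5 and chow liver 1, and 1 without each of chow livers 4 and 6. *Psmb9*, a subunit of the immunoproteasome, was 1.36-fold higher than chow and 0.29 lower than in HFD livers (-0.29, limma adjusted p = 0.0871). *Il1rn*, the interleukin-1 receptor antagonist, was 1.5-fold higher, and treated and chow livers overlapped.

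Genes of amino acid breakdown were lower. Of 65 genes of amino acid catabolism and the urea cycle, 26 were lower and 1 higher in treated livers (40.0% lower, against 9.89% of all genes), with a median of -0.21, against 20 lower and 12 higher and a median of -0.12 in HFD livers. *Gls2*, the liver glutaminase, lay between 13.23 (median 13.41) and 13.88 in chow and 12.54 (median 12.8) and 13.08 in treated livers, 1.65-fold lower without overlap (limma adjusted p = 0.00063). *Got1*, the cytosolic aspartate aminotransferase, was 2.8-fold lower, with chow livers between 12.54 and 14.49 and treated livers between 11.45 and 12.62. *Slc7a2*, an arginine and lysine transporter, was 1.93-fold lower and *Asl*, argininosuccinate lyase of the urea cycle, 1.87-fold lower. Other enzymes of the urea cycle, chosen after their values were seen, were lower by -0.75 (*Cps1*), -0.85 (*Ass1*) and -0.4 (*Arg1*) on the log2 scale (limma adjusted p = 0.00642, 0.00664 and 0.0685), and *Arg1* lost its call in 6 of 18 fits without 1 library.

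Hepatocytes around the portal vein carry out most of this work, and of 25 periportal genes 14 were lower and none higher than chow, with a median of -0.4. That is 56.0% lower, against 9.89% of all genes. In HFD livers 12 were lower and 1 higher, with a median of -0.26, and 2 were higher and 2 lower in treated than in HFD livers. The periportal and amino acid lists share several enzymes, *Gls2* and *Asl* among them. All 6 treated livers had a periportal median below the chow mean, from -0.73 in liver 4 to -0.26 in liver 3, while chow livers ranged from -0.26 to 0.44, so that treated liver 3 reached the lowest chow liver. Of 26 pericentral genes 7 were higher and 3 lower in treated livers (26.9% and 11.5%, against 9.79% and 9.89% of all genes). In HFD livers 8 of them were higher and 4 lower. Of 28 genes of the glucocorticoid response and fasting, 8 were lower and none higher (28.6% lower, against 9.89% of all genes). The list had 14 lower in HFD livers, where the share of all genes was 16.3%. List medians were -0.85 to -0.1 from the chow mean in treated livers and -0.27 to 0.64 in chow livers. Treated livers 3 to 6 lay within the chow range, and chow liver 3 held its highest value. Without chow liver 3, 6 genes were lower and the median difference moved from -0.33 to -0.16. *Pck1*, the enzyme that commits to gluconeogenesis, lay between 16.4 (median 16.89) and 17.12 in chow, 15.56 (median 15.67) and 16.02 in HFD, and 15.86 (median 16.19) and 16.38 in treated livers. Treated livers were 1.59-fold below chow without overlap (limma adjusted p = 0.00316) and 0.43 above HFD on the log2 scale (limma adjusted p = 0.0791). *Fkbp5*, a glucocorticoid-induced chaperone, was 1.82-fold lower and *Ppargc1a*, the coactivator of gluconeogenesis and mitochondrial genes, 1.54-fold lower than chow.

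Insulin and growth factor signalling had 11 of 39 genes lower and 1 higher (28.2% and 2.56%, against 9.89% and 9.79% of all genes). In HFD livers 16 were lower and 4 higher (51.3% called, beside 32.1% of all genes). The number lower in treated livers was 5 without HFD+AC261066 liver 1, 7 without each of HFD+AC261066 liver 6 and chow livers 1, 4 and 6, and 6 after quantile normalization. *Irs2*, the insulin receptor substrate of the fasted liver, was 1.4-fold lower, *Fgfr1*, a fibroblast growth factor receptor, 1.43-fold lower and *Tsc1*, which restrains mTORC1, 1.25-fold lower. *Ppp1r3g*, a glycogen-targeting phosphatase subunit, differed from chow by -1.12 (limma adjusted p = 0.00652). *Hnf4a*, a transcription factor that maintains hepatocytes, was 1.36-fold lower, with a difference of -0.76 in libraries 1 to 3 and -0.12 in libraries 4 to 6 that did not pass the test of sets (limma adjusted p = 0.11). Each of these 5 genes was lower in HFD livers as well, by between -0.23 and -1.38 on the log2 scale.

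Cytoplasmic ribosomal protein genes, whose products form the translating ribosome, were lower in part. Of 78 tested, 40 were lower and none higher in treated livers (51.3% lower, against 9.89% of all genes), with a median of -0.21. That median was -0.08 in libraries 1 to 3 and -0.33 in libraries 4 to 6. In HFD livers 74 were lower, with a median of -0.36 (94.9% called, beside 32.1% of all genes). Between treated and HFD livers 12 were higher in treated livers and none lower (15.4% called, beside 4.38% of all genes). *Rps19* was 1.3-fold lower than chow, *Rpl38* 1.4-fold and *Rpl14* 1.25-fold. The number lower than chow in treated livers was 62 without HFD+AC261066 liver 3, 22 without HFD+AC261066 liver 4, 24 without chow liver 4 and 26 without chow liver 6. It was 21 after quantile normalization, with a median of -0.16. The median of the list was below 0 under each of these settings.

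Of 76 genes of oxidative phosphorylation, 17 were lower and 1 higher than chow (22.4% and 1.32%, against 9.89% and 9.79% of all genes), with a median of -0.12. In HFD livers 6 were lower and 2 higher (10.5% called, beside 32.1% of all genes), and 2 were lower in treated than in HFD livers. *Ndufs7* and *Ndufv1* of complex I were 1.22-fold and 1.17-fold lower, *Cox4i1* of complex IV 1.18-fold and *Atp5b* of the ATP synthase 1.19-fold. The number called lower was 4 without HFD+AC261066 liver 4, 5 without chow liver 4, 8 without HFD+AC261066 liver 5 and 27 without HFD+AC261066 liver 3, and it was 5 after quantile normalization.

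**Figure D4:**
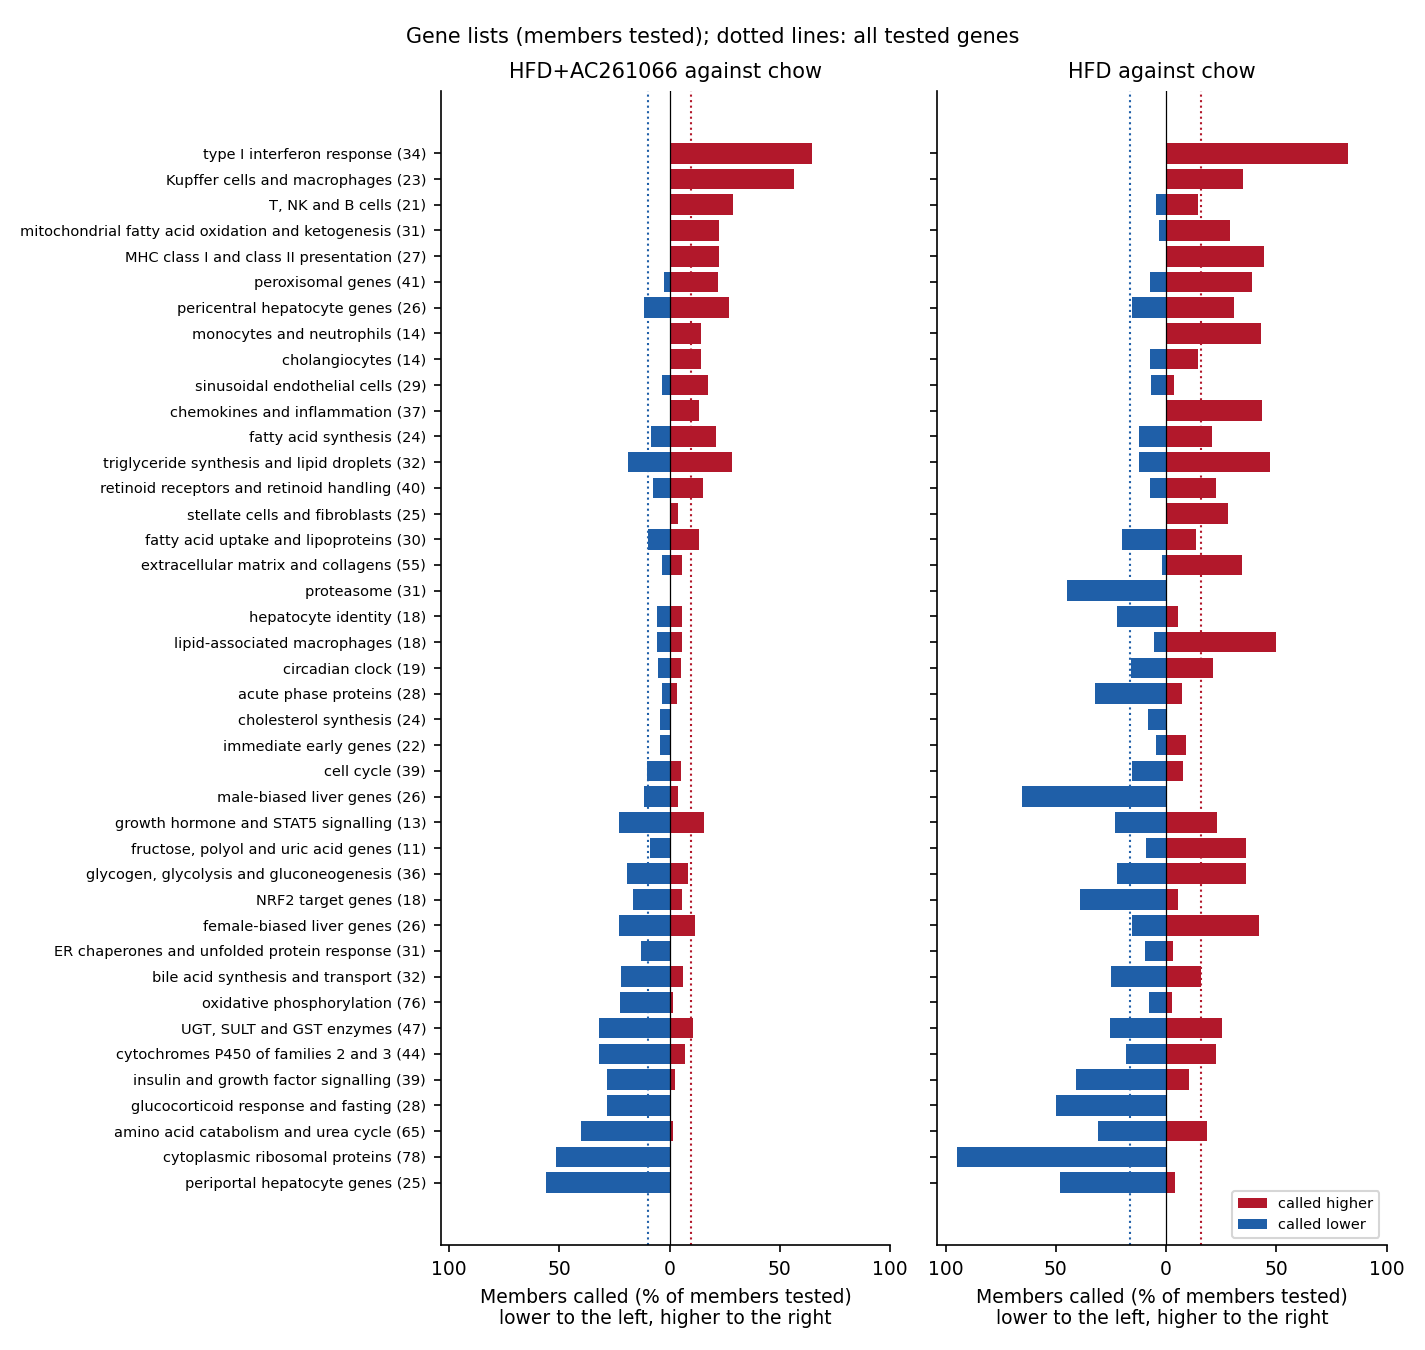
Percent of the members of each gene list called higher and lower (horizontal axis) in HFD+AC261066 against chow, left, and in HFD against chow, right, for lists with at least 10 members tested. Dotted lines mark the percent of all tested genes called in each direction, 9.79 and 9.89 on the left and 15.8 and 16.3 on the right. The interferon and Kupffer cell lists extend farthest to the higher side on the left, and the periportal and ribosomal lists to the lower side.

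Lipid genes were called in both directions. Of 32 genes of triglyceride synthesis and lipid droplets, 15 were higher and 4 lower in HFD livers (59.4% called, beside 32.1% of all genes). In treated livers 9 were higher and 6 lower (28.1% and 18.8%, against 9.79% and 9.89% of all genes), with a median of 0.05. The number higher was 5 without HFD+AC261066 liver 2, and the number lower was 3 without HFD+AC261066 liver 1. *Mgll*, monoacylglycerol lipase, was 1.63-fold higher than chow, *Cideb*, a lipid droplet and lipoprotein assembly protein, 1.22-fold higher, and *Dgat1*, the acyltransferase that completes triglyceride synthesis, 1.19-fold lower. Of 24 fatty acid synthesis genes, 5 were higher and 2 lower in treated livers (20.8% and 8.33%), beside 5 higher and 3 lower in HFD livers. *Srebf1*, the transcription factor that drives lipogenesis, lay between 10.76 (median 11.05) and 11.68 in chow, 11.92 (median 12.18) and 12.42 in HFD, and 11.39 (median 11.73) and 12.16 in treated livers, 1.56-fold above chow with overlap (limma adjusted p = 0.00796). *Fabp1* and *Fabp2*, intracellular carriers of fatty acids, were 1.69-fold and 1.76-fold higher, and *Apom*, an apolipoprotein that carries sphingosine 1-phosphate, 1.51-fold lower with treated liver 3 at 13.0 and the other 5 between 11.94 and 12.22. For *Mgll*, *Fabp1*, *Fabp2* and *Srebf1* the difference from chow was not the same in the sets of libraries: it was 0.2, 0.17, 0.23 and 1.03 in libraries 1 to 3 and 1.2, 1.35, 1.41 and 0.25 in libraries 4 to 6 (limma adjusted p for the difference of sets = 0.04, 0.0713, 0.0127 and 0.0853).

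Fatty acid oxidation genes were higher where they were called. Of 31 mitochondrial and ketogenic genes, 7 were higher and none lower, with a median of 0.14, and of 41 peroxisomal genes 9 were higher and 1 lower. Without HFD+AC261066 liver 3 these counts rose to 16 and 14 higher, and the peroxisomal count was 5 without each of HFD+AC261066 livers 1 and 4 and chow liver 4. The mitochondrial and ketogenic list had 9 higher and 1 lower in HFD livers (32.3% called, beside 32.1% of all genes), with a median of 0.15. The peroxisomal list had 16 higher and 3 lower there (46.3% called), with a median of 0.13 beside 0.12 in treated livers. Between treated and HFD livers limma called none of the mitochondrial and ketogenic genes, and 2 peroxisomal genes were lower and none higher. *Fgf21*, a fasting hormone of the liver, ran from 5.71 (median 6.35) to 7.09 in chow, 6.45 (median 6.73) to 7.61 in HFD and 6.69 (median 7.65) to 9.51 in treated livers, which overlapped chow and reached far above it. It was 2.82-fold above chow (limma adjusted p = 0.0139), was not called in HFD livers against chow (0.45, adjusted p = 0.388) and was not called between treated and HFD livers (1.05, adjusted p = 0.14), so no difference between the HFD groups was shown. *Ucp2*, a mitochondrial carrier, was 1.37-fold higher, *Acot2*, a mitochondrial thioesterase, 1.83-fold, and *Acat1*, the mitochondrial thiolase of ketone metabolism, 1.34-fold. Among peroxisomal genes *Abcd2*, an importer of very long acyl-CoAs, was 1.76-fold higher and *Crat*, carnitine acetyltransferase, 1.53-fold, while *Agxt*, which detoxifies glyoxylate, was 1.36-fold lower.

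Cholesterol synthesis, in contrast, had 1 of 24 genes called, *Tm7sf2*, a sterol reductase (1.68-fold lower), and its median difference was 0.5 in libraries 1 to 3 and -0.5 in libraries 4 to 6. Chow livers spanned medians of -0.41 to 0.52 and treated livers of -0.56 to 1.33 for this list, so the groups overlapped widely. Without HFD+AC261066 liver 3, which held the highest of these medians, 3 of the 24 were lower and the median moved from -0.06 to -0.29.

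Some further genes were named by the same rule. *Col27a1* and *Col15a1*, collagens, were 2.44-fold and 1.68-fold higher than chow, but the matrix list as a whole was not. Of 55 matrix genes tested 3 were higher and 2 lower (5.45% and 3.64%, against 9.79% and 9.89% of all genes), with a median of -0.06. In HFD livers 19 were higher and 1 lower (36.4% called, beside 32.1% of all genes). *Ccnd1*, a cyclin of the G1 phase, was 1.75-fold higher and *Ccnd3* 1.24-fold lower. *Stat5a*, a transducer of growth hormone, was 1.4-fold higher, with treated liver 3 at 7.94 and the other 5 between 8.47 and 8.6. *Socs2*, an inhibitor of that pathway, was 2.11-fold lower, a call lost in 4 of 18 fits without 1 library.

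Several lists were near or below the background of 19.7% in treated livers. None of 31 proteasome genes was called against chow in treated livers by limma, 0 of them at an unadjusted p under 0.05, and 14 were lower in HFD livers. Without HFD+AC261066 liver 3, 4 of the 31 were lower than chow, with a median of -0.08. Of 25 stellate cell and fibroblast markers 1 was higher (7 in HFD livers), and of 18 markers of lipid-associated macrophages 1 was higher and 1 lower (9 and 1 in HFD livers). Of 26 male-biased liver genes 3 were lower and 1 higher (17 lower in HFD livers), with 6 lower without chow liver 3, and 1 of the 6 Cyp4a hydroxylases was lower (all 6 in HFD livers). Of 28 acute phase genes 1 was higher and 1 lower, against 2 higher and 9 lower in HFD livers (39.3% called, beside 32.1% of all genes). Without HFD+AC261066 liver 3 the acute phase list had 1 higher and 6 lower, and its median moved from -0.11 to -0.32. Circadian and fructose lists had 2 of 19 and 1 of 11 genes called, against 36.8% and 45.5% called in HFD livers. A call that is missed does not show that a list is back at its chow level.

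**Figure D5:**
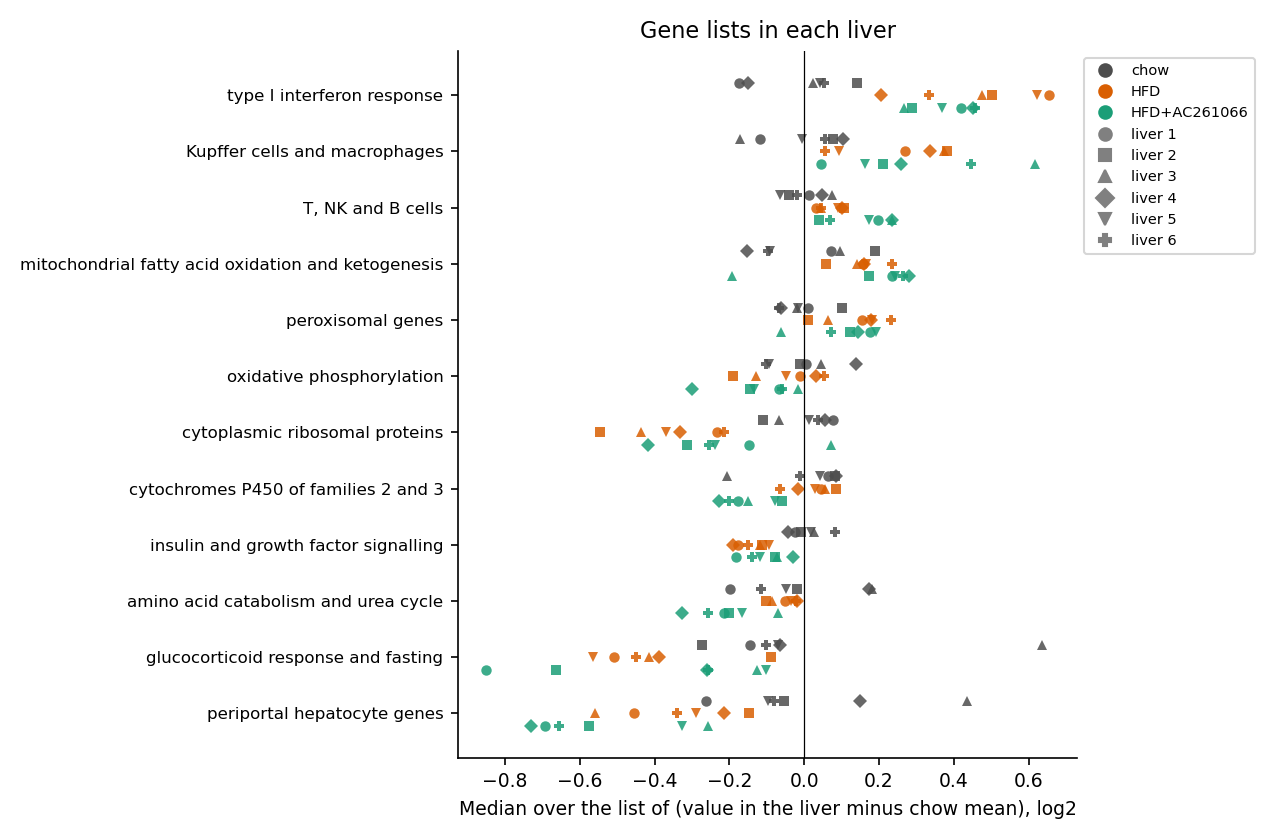
Median over each of 12 gene lists (vertical axis) of the difference from the chow mean (log2, horizontal axis) in every liver. Colours mark chow, HFD and HFD+AC261066 livers, and marker shapes mark livers 1 to 6. The interferon medians of treated livers (0.27 to 0.46) are higher than those of chow livers (-0.17 to 0.14), and treated liver 3 has the highest Kupffer cell median (0.62).

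The treated livers were not alike. Over the 2611 called genes, the median difference from the chow mean, counted in the direction of the call, was 0.31, 0.27, 0.2, 0.35, 0.32 and 0.23 in treated livers 1 to 6, against -0.05 to 0.04 in chow livers. Treated liver 3 had the smallest and liver 4 the largest value. Over genes called higher in HFD livers, treated livers had medians of 0.13 (liver 3) to 0.23 and HFD livers of 0.26 to 0.35, and over genes called lower the medians were -0.11 (liver 3) to -0.2 and -0.24 to -0.29. These genes were chosen with the same chow and HFD livers, so the HFD values are a description. Of the 2611 called genes 2568 (98.4%) had the same sign in both sets of libraries, which the choice of genes on the pooled livers largely fixes, and the median size was 0.24 in libraries 1 to 3 and 0.31 in libraries 4 to 6. The difference from chow itself varied between the sets in 566 of all tested genes (4.27%, limma adjusted p under 0.1), 108 of them among the called genes.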

How the data were processed

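Liver RNA of 18 mice was sequenced by the authors as paired-end reads of 51 bases from TruSeq libraries, at a stated depth of about 30 M pairs per sample and RIN above 9. The sources name bcl2fastq 2.17, cutadapt, TopHat2 2.0.11 with mm9, HTSeq 0.6.1, DESeq2 1.6.3 and limma 3.22.7 for the authors' processing. The authors deposited 1 table of log2 values per gene, normalized and corrected for batch, and the exact transform is not given in the sources used here. Values ran from -3.98 to 21.4, and 3620 of 20512 genes stood at 0 in every library. Counts were not used here, so depth per library is unknown. The GEO labels name an instrument, a DNA kit and a neural stem cell protocol that differ from the study's methods for liver RNA, which were followed here.

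Groups were taken from sample titles. Genes that averaged 2 or more on the log2 scale were fitted with limma 3.58.1 (R 4.3.3, empirical Bayes with trend), all 18 libraries in 1 fit with 3 groups and no batch term (15 residual degrees of freedom), two-sided, with Benjamini-Hochberg adjustment over 13268 genes and a threshold of 0.1. Because the batches were levelled before deposit, a fit without a batch term counts more residual degrees of freedom than remain, and the fit with one (14) was run as an alternative. Differences are on the log2 scale and folds are 2 raised to them. A linear level is 2 raised to the log2 value and is comparable between livers but not between genes. Self-checks used simulated data. Tables were handled with Python 3.11.15, pandas 2.3.3, numpy 2.4.6 and scipy 1.17.1, and plots with matplotlib 3.10.9.

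Named genes were the 10 with the smallest p in each direction, the 5 in each direction that stayed changed by at least 1 with the smallest difference between treated and HFD livers, the 8 new genes in each direction with the smallest larger p, the genes on the other side of chow, up to 4 members of each list with the smallest p, and called genes that the study names. Genes outside this rule are marked where they appear, and a few genes that meet it are not reported here. The comparison, its members and the gene lists were chosen with earlier results of these data known. Gene positions in mm9 are from GENCODE vM1, and promoter sequences and positions from RefSeq GRCm38.p6. The alternatives were other minimum values, quantile normalization, equal medians, a batch term, a replicate block, the 12 libraries of the comparison alone, each set of libraries alone, an adjusted p of 0.05, limma without trend, and leaving out each library in turn.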

Additional observations from a re-analysis of the deposited data

Results flagged for a closer look

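In each group of 6 livers the gap between the most extreme liver and its neighbour was set against the group's range (Dixon's ratio, critical value 0.625). Of 266 groups examined, 14 passed (5.26%), and chance passes about 1 in 20. Treated liver 3 stood apart in 8 of them. It was nearer to chow than the other 5 treated livers in *Slc17a3* (ratio 0.625, 10.55 against 10.8 to 10.95), *Acmsd* (0.786, 8.99 against 6.92 to 7.36), *Slco1a4* (0.657, 11.07 against 10.02 to 10.38), *Cyp27a1* (0.65, 13.62 against 13.08 to 13.27), *Asl* (0.626, 14.43 against 13.36 to 13.76), *Apom* (0.737, 13.0 against 11.94 to 12.22), *Acat1* (0.677, 13.58 against 14 to 14.19) and *Stat5a* (0.797, 7.94 against 8.47 to 8.6). The other treated livers set apart were liver 4 in *Ndufv1* (0.629, 11.71 against 11.87 to 11.97) and liver 2 in *Rarg* (0.744, 7.42 against 7.73 to 7.84). Among chow livers, liver 3 stood apart in *Slc39a4* (0.676, 9.52 against 9.98 to 10.2), *Agxt* (0.714, 13.08 against 12.51 to 12.67) and *Socs2* (0.796, 8.3 against 9.49 to 9.8) and liver 1 in *Stat2* (0.806, 10.15 against 9.9 to 9.95).

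The difference between treated and chow livers itself differed between libraries 1 to 3 and libraries 4 to 6 in 11 of 133 named genes (8.27%), against 4.27% of all tested genes (limma, adjusted p of the interaction). It was larger in libraries 4 to 6 for *Cux2* (-0.34 and -3.04, adjusted p = 0.0122), *Scd1* (-1.42 and -4.0, 0.0205), *Cyp2b9* (1.54 and 4.37, 0.0433), *Ugt1a10* (-0.26 and -0.92, 0.0324), *Tm7sf2* (-0.26 and -1.24, 0.0585), *Fads2* (0.14 and 1.08, 0.0426), *Mgll* (0.2 and 1.2, 0.04), *Fabp1* (0.17 and 1.35, 0.0713), *Fabp2* (0.23 and 1.41, 0.0127) and *Acat1* (0.04 and 0.81, 0.0362), and smaller for *Srebf1* (1.03 and 0.25, 0.0853).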

How the results depend on the processing

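Of 133 named genes, 130 were called against chow, 118 of them in each of 18 fits that left out 1 library, and none reversed under any alternative run, but 110 lost their call with libraries 1 to 3 alone. Most of these genes were named for a small p in the main fit, which favours calls that persist when 1 library is left out. The counts are therefore a description of the named genes and do not stand for all called genes. With a batch term 2212 genes were called, 1535 stayed changed, 45 were new and 1 lay on the other side of chow, and *Mt2* and *Slc4a1* lost their calls. At an adjusted p of 0.05 there were 1590 called genes (788 higher, 802 lower), 1086 that stayed, 28 new, 0 on the other side and 504 called in treated livers alone, against 790 at 0.1. Libraries 1 to 3 alone gave 123 calls (64 higher, 59 lower), 63 that stayed, 2 new, 0 on the other side and 60 in treated livers alone. Libraries 4 to 6 alone gave 2857 calls, with 183 new, 7 on the other side and 1318 in treated livers alone. One gene lay on the other side without a minimum value and with quantile normalization (1 each). Leaving out 1 library gave 1850 (without chow liver 4) to 3120 (without HFD+AC261066 liver 3) calls, 931 to 1547 higher, 890 to 1573 lower, 1241 to 2103 that stayed, 30 to 177 new, 1 to 7 on the other side and 438 (without HFD+AC261066 liver 4) to 1010 in treated livers alone, with 495 without HFD+AC261066 liver 5. The cause was not tested. Same-numbered livers did not pair: over 6 pairs the correlation of deviations ran from -0.361 to 0.148, 1 exceeded 0.1 and 1 library matched its own number best. With the number as a replicate block 1863 genes were called, 1301 stayed, 31 were new and 0 lay on the other side.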
